A study of Homo sapiens with 4 samples.

Results

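The ErbB receptor family and its ligands were examined in 4 human prostate cancer cell lines. The members were taken by symbol, as EGFR, ERBB2, ERBB3 and ERBB4 among the receptors and AREG, EREG, BTC, EGF, HBEGF and TGFA among the ligands. Of these 10 genes, 6 had a row among the 22637 genes of the count table used here. These were 3 of the 4 receptors (EGFR, ERBB2 and ERBB3) and 3 of the 6 ligands (EGF, HBEGF and TGFA). The other 4 genes, ERBB4, AREG, EREG and BTC, had no row and were not analysed here. Every gene in the table sums to at least 10 over the 4 libraries.

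LNCaP is an androgen-responsive line from a lymph node metastasis of prostate adenocarcinoma, and C4-2B is a bone-metastatic, castration-resistant line derived from LNCaP in mice. LN-OlapR and 2B-OlapR are olaparib-resistant derivatives of LNCaP and of C4-2B, obtained by chronic exposure to rising doses of olaparib, an inhibitor of the DNA repair enzyme PARP. All 4 lines are labelled untreated, and the resistant lines, otherwise kept in olaparib, were plated without the selecting agent before RNA was taken. The time off olaparib is 48 h by the deposited description, while the study's methods give a longer plating time. Each resistant line is a single derived line with 1 mRNA library per line, so no difference below could be set against a spread between replicates and no p-value is given. LN-OlapR against LNCaP is called the LN pair and 2B-OlapR against C4-2B the 2B pair, and C4-2B against LNCaP compares the parental lines and shares a library with each pair.

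ErbB receptors are receptor tyrosine kinases that pair with one another when a ligand binds, and the activated pairs signal through the RAS-ERK and PI3K-AKT cascades. EGFR is the receptor for EGF, TGF-alpha and HB-EGF, ERBB2 has no known ligand of its own and acts as the preferred partner of the others, and ERBB3 binds neuregulins and has a weak kinase but many docking sites for PI3K. The ligands are made as membrane proteins and are released by proteases of the ADAM family. In the prostate, EGFR signalling is known to interact with the androgen receptor and to support growth when androgen is low.

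Library totals ranged from 19950537 to 26394267 estimated counts. All 9 luminal prostate markers had a row, with a summed level of 3547 to 6217 normalized CPM, which is counts scaled by the TMM library size and written as CPM. KLK3, the gene for prostate-specific antigen, stood apart in LNCaP at 53.1 normalized CPM, against 1870 to 2685 in the other lines, so the LN pair and the parental comparison both rest on a library with an unusual luminal gene. Of 19 markers of other cell types, 7 had a row. The only basal marker among them, KRT14, lay at 0.112 to 0.557 normalized CPM, the neuroendocrine marker SYP at 2.44 to 3.13, and the leukocyte marker CD68 at 0.409 in LNCaP and 2.17 to 5.14 elsewhere. The 4 stromal and endothelial markers summed to 24.3 for LNCaP and 14.7 for LN-OlapR, with 31.1 for C4-2B and 11.4 for 2B-OlapR. The sum was lower in each resistant line than in its parent. PDGFRB, 1 of these 4, went the other way in the LN pair, at 0.707 in LNCaP and 2.06 in LN-OlapR. The part of these markers in the differences below was not tested.

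EGFR showed the widest spread among the receptors. Its estimated counts were 2000 for LNCaP and 2394 for LN-OlapR, with 4003 for C4-2B and 9826 for 2B-OlapR. As normalized levels these were 74.4 CPM (95% Wilson interval 71.2 to 77.7), 102.6 (98.6 to 106.8), 195.6 (189.7 to 201.8) and 474.2 (464.9 to 483.7). The order ran from LNCaP through LN-OlapR and C4-2B to 2B-OlapR, with a 6.37-fold span and each neighbour in that order apart by more than counting error. Intervals throughout cover counting error only. In bulk RNA from a cell line, fewer cells of a type and less RNA per cell cannot be told apart.

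Relative to its parent, EGFR was 1.38-fold higher in LN-OlapR (log2 ratio 0.46, 95% interval 0.38 to 0.55) and 2.42-fold higher in 2B-OlapR (1.28, 1.22 to 1.33). Ranked by log2 ratio from the highest, it stood at 2194 of 15373 genes in the LN pair and at 452 of 15527 in the 2B pair. C4-2B held 2.63 times the LNCaP level (1.39, 1.32 to 1.47), so the parental lines were about as far apart as the 2B pair. The level in LN-OlapR lay below that in C4-2B, by 0.93 on the log2 scale.

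**Figure D1:**
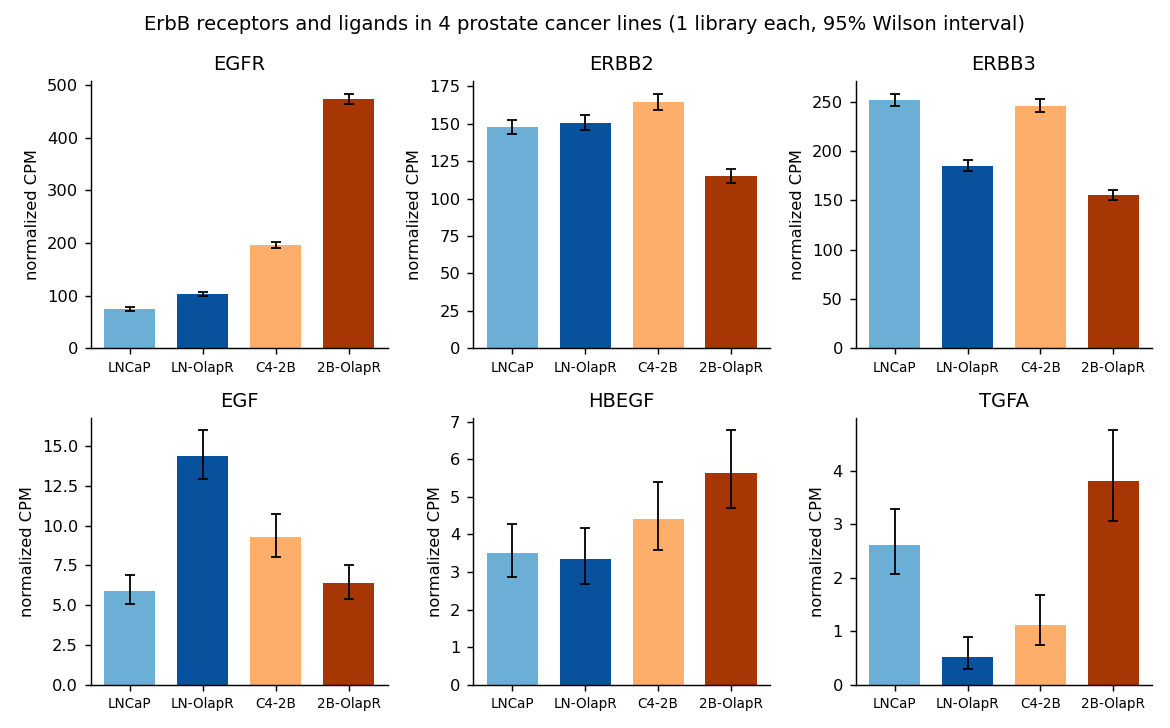
Normalized level in CPM (vertical axis, starting at 0 and scaled for each gene) of the 6 measured ErbB receptors and ligands in 4 cell lines, with bars for the single library of each line and whiskers for the 95% Wilson interval of the count. EGFR climbs from 74.4 in LNCaP to 474.2 in 2B-OlapR, ERBB3 is lower in each resistant line than in its parent, and TGFA is lowest in LN-OlapR at 0.514.

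The EGFR gene (ENSG00000146648.21 in the table) lies on chr7:55019021-55211628 of GRCh38, on the plus strand, and its longest coding transcript in GENCODE 29 has 28 exons and 9821 bases. An antisense gene, EGFR-AS1, overlaps it on the minus strand at 8, 8, 19 and 29 estimated counts in LNCaP, LN-OlapR, C4-2B and 2B-OlapR. Whether the counting used strand is not given in the sources used here, but these counts are a small fraction of those of EGFR in every library.

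The 250 bases before the start of EGFR are shown as the promoter of the receptor that differed most, and those before EGF as the promoter of the ligand with the highest level in LN-OlapR. Both come from RefSeq on GRCh38.p14, read 5′ to 3′ on the plus strand, EGFR from chr7:55018767-55019016 and EGF from chr4:109912633-109912882. Capitals mark a GC box (GGGCGG or, on the other strand, CCGCCC) in EGFR and an AP-1 motif (TGANTCA, which reads the same on either strand) in EGF.
EGFR: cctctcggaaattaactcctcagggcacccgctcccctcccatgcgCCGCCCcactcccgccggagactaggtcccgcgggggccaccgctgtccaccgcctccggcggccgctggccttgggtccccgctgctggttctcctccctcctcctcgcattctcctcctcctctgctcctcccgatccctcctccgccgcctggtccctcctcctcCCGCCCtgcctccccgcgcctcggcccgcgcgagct
EGF: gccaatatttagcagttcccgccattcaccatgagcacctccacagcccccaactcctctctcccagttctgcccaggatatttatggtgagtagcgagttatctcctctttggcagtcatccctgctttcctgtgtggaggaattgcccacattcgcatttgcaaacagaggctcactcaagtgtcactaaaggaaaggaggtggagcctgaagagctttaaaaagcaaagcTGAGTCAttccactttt
The EGFR window was 73.6% G and C, against a median of 58.0% over 35116 promoters, and held 2 GC boxes and no AP-1 motif. It also held 8 copies of TCCTCC or its complement GGAGGA, some of which overlap, in a stretch before the start. The EGF window was 48.8% G and C, with 1 AP-1 motif and no GC box. Of all promoters, 42.6% held a GC box, 6.57% the AP-1 motif and 31.8% TCCTCC or GGAGGA. These matches describe letters in the windows and are not binding sites. A RefSeq promoter entry was matched for 9 of the 10 genes, and for 5 of the 6 with a row.

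ERBB2, the shared partner receptor, varied least of the receptors, with a 1.43-fold span. It had 3972 estimated counts for LNCaP and 3518 for LN-OlapR, with 3364 for C4-2B and 2386 for 2B-OlapR, or 147.8, 150.8, 164.4 and 115.2 normalized CPM. 2B-OlapR was the one line that stood below the others, at a log2 ratio of -0.51 to C4-2B (-0.59 to -0.44). In the LN pair the log2 ratio was 0.03 (-0.04 to 0.10), with no difference beyond counting error, and it took the opposite sign at -0.054 when libraries were scaled by total counts. C4-2B lay slightly above LNCaP, at 0.15 (0.09 to 0.22). ERBB2 (ENSG00000141736.14) spans chr17:39687914-39730426 on the plus strand, with 31 exons and 4792 bases in its longest coding transcript, and overlaps PGAP3 and MIEN1 on the minus strand.

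ERBB3, the neuregulin receptor, was lower in each resistant line than in its parent. Its estimated counts were 6783, 4315, 5037 and 3220 in LNCaP, LN-OlapR, C4-2B and 2B-OlapR, or 252.3, 185.0, 246.2 and 155.4 normalized CPM. The 2 parental lines were highest and did not differ beyond counting error, with a log2 ratio of -0.04 (-0.09 to 0.02) for C4-2B against LNCaP. The log2 ratio was -0.45 (-0.50 to -0.39) in the LN pair and -0.66 (-0.73 to -0.60) in the 2B pair, which is below 2-fold in each. ERBB3 (ENSG00000065361.17) lies on chr12:56076799-56103505, plus strand, with 28 exons and 5919 bases in its longest coding transcript. AC034102.2, annotated as protein-coding, overlaps ERBB3 on the same strand and had no row in the count table.

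Because EGFR was higher and ERBB3 lower in each resistant line, their counts were also set against each other inside each library, which removes the scaling between libraries. The count of EGFR divided by that of ERBB3 was 0.295 for LNCaP and 0.555 for LN-OlapR, with 0.795 for C4-2B and 3.05 for 2B-OlapR. This ratio was 1.88 times higher (95% interval 1.75 to 2.02) in the resistant line in the LN pair and 3.84 times higher (3.63 to 4.07) in the 2B pair. EGFR divided by ERBB2 followed the same order of lines, at 0.504, 0.681, 1.19 and 4.12.

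Levels of different genes can be compared only per length of transcript. Per kilobase of the longest coding transcript, EGFR stood at 7.58 normalized CPM for LNCaP and 10.5 for LN-OlapR, with 19.9 for C4-2B and 48.3 for 2B-OlapR. ERBB3 had 42.6, 31.3, 41.6 and 26.3 and ERBB2 30.8, 31.5, 34.3 and 24.0 on that scale. EGFR was therefore the lowest of the 3 receptors in LNCaP, LN-OlapR and C4-2B and the highest in 2B-OlapR. It made up 9.35% of the 3 receptors in LNCaP and 14.3% in LN-OlapR, with 20.8% in C4-2B and 49.0% in 2B-OlapR. The ranking depended on the transcript length taken. With the median length of the coding transcripts, the shares of EGFR were 7.08%, 11.9%, 16.7% and 43.1%. ERBB3 then stayed ahead in 2B-OlapR at 46.1%, and ERBB2, at 14.6%, lay below EGFR in C4-2B.

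**Figure D2:**
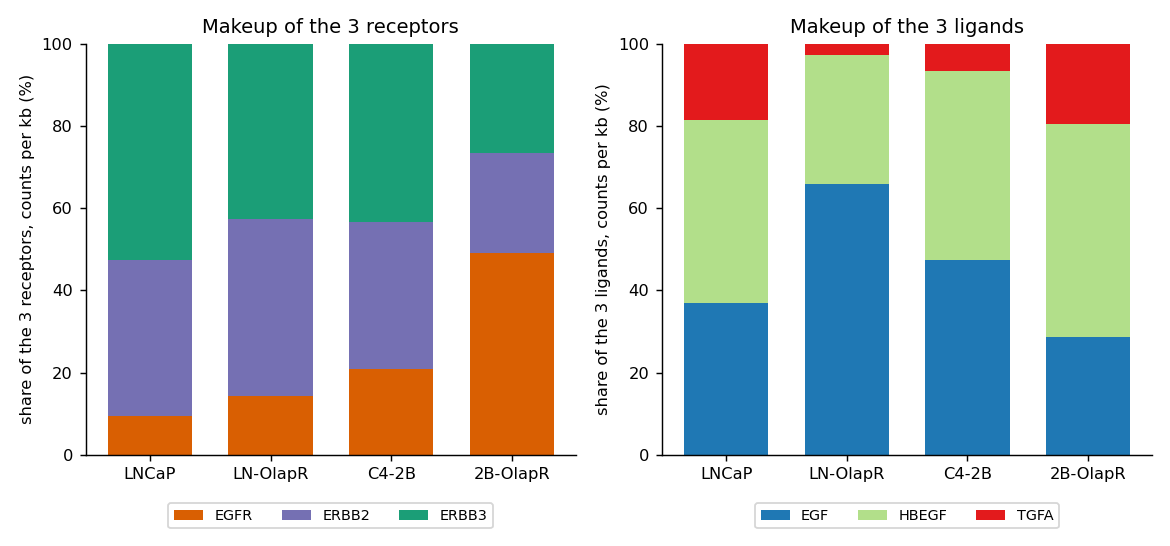
Share of each gene in the 3 measured receptors (left) and the 3 measured ligands (right), in percent of their summed counts per kilobase of the longest coding transcript, for the single library of each of 4 cell lines. The EGFR share is 9.35% in LNCaP and 49.0% in 2B-OlapR, and the TGFA share is 2.67% in LN-OlapR and 19.4% in 2B-OlapR, against 10.5% and 51.5% with the median transcript length.

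The ligand transcripts were scarce next to the receptors, at 0.119 to 2.94 normalized CPM per kilobase of the longest coding transcript against 7.58 to 48.3 for the receptors. EGF, the founding ligand of EGFR, had 159 estimated counts for LNCaP and 335 for LN-OlapR, with 190 for C4-2B and 132 for 2B-OlapR, or 5.91, 14.4, 9.29 and 6.37 normalized CPM. LN-OlapR stood above the rest, while LNCaP and 2B-OlapR did not differ beyond counting error. The log2 ratio was 1.28 (1.01 to 1.55), or 2.42-fold higher, in the LN pair and -0.54 (-0.86 to -0.22) in the 2B pair. The parental comparison gave 0.65 (0.35 to 0.95). EGF (ENSG00000138798.13) lies on chr4:109912884-110012266, plus strand, and its longest coding transcript has 24 exons and 4880 bases.

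TGFA encodes TGF-alpha, a ligand that binds EGFR only. It had 70 estimated counts for LNCaP and 12 for LN-OlapR, with 23 for C4-2B and 79 for 2B-OlapR, or 2.60, 0.514, 1.12 and 3.81 normalized CPM. These are low counts, but each neighbour in the order from LN-OlapR through C4-2B and LNCaP to 2B-OlapR differed beyond counting error, over a 7.41-fold span. TGFA was 4.89-fold lower in the resistant line of the LN pair (log2 ratio -2.29, -3.16 to -1.42) and 3.34-fold higher in the 2B pair (1.74, 1.08 to 2.40). Counted from the lowest log2 ratio it stood at 186 of 15373 genes in the LN pair, and from the highest at 257 of 15527 in the 2B pair. Between the parental lines it was lower in C4-2B, at -1.19 (-1.86 to -0.52). TGFA (ENSG00000163235.16) lies on chr2:70447280-70554193, minus strand, with 6 exons and 4310 bases in its longest coding transcript.

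HBEGF encodes HB-EGF, the heparin-binding ligand of EGFR and ERBB4. It had 94, 78, 90 and 117 estimated counts in LNCaP, LN-OlapR, C4-2B and 2B-OlapR, or 3.50, 3.34, 4.40 and 5.65 normalized CPM. No neighbouring levels differed beyond counting error at this depth. The log2 ratios were -0.06 (-0.49 to 0.37) in the LN pair, 0.36 (-0.04 to 0.75) in the 2B pair and 0.33 (-0.08 to 0.75) between the parental lines. None of these differed beyond counting error, and differences within these bounds are not excluded. The lines with the highest and lowest levels, 2B-OlapR and LN-OlapR, were 0.75 apart (0.34 to 1.16). HBEGF (ENSG00000113070.8) lies on chr5:140332843-140346631, minus strand, with 6 exons and 2386 bases in its longest coding transcript.

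Inside each library the balance of the ligands moved with TGFA and EGF. The count of TGFA divided by that of EGF was 0.440 for LNCaP and 0.0358 for LN-OlapR, with 0.121 for C4-2B and 0.598 for 2B-OlapR. The LN pair changed this ratio by a factor of 0.0814 (0.0429 to 0.154) and the 2B pair by a factor of 4.94 (2.95 to 8.27). Per kilobase of the longest coding transcript, EGF was 65.9% of the 3 ligands in LN-OlapR, while HBEGF was 51.9% in 2B-OlapR. These shares depended on the length taken: with the median length of the coding transcripts, TGFA was the largest in 2B-OlapR at 51.5%, with HBEGF at 30.3%, and made up 10.5% in LN-OlapR.

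Genes were counted where they averaged 1 normalized CPM or more over a pair. Of these, 2 of the 6 measured members were at least 2-fold apart in the LN pair (EGF higher, TGFA lower). Of all genes, 9.46% were, with 4.64% higher and 4.83% lower. In the 2B pair 2 of 6 were at least 2-fold higher (EGFR and TGFA), against 4.42% of all genes higher, 5.65% lower and 10.1% either way. Between the parental lines 2 of 6 passed 2-fold (EGFR higher, TGFA lower in C4-2B), against 15.2% of all genes. The interval left out a ratio of 1 for 4 of 6 members in the LN pair, 5 of 6 in the 2B pair and 4 of 6 between the parental lines, but this was so for 63.0%, 62.3% and 70.4% of all genes, since counting intervals are narrow at this depth. TGFA entered the LN pair through its LNCaP level, since LN-OlapR alone lay under the minimum.

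**Figure D3:**
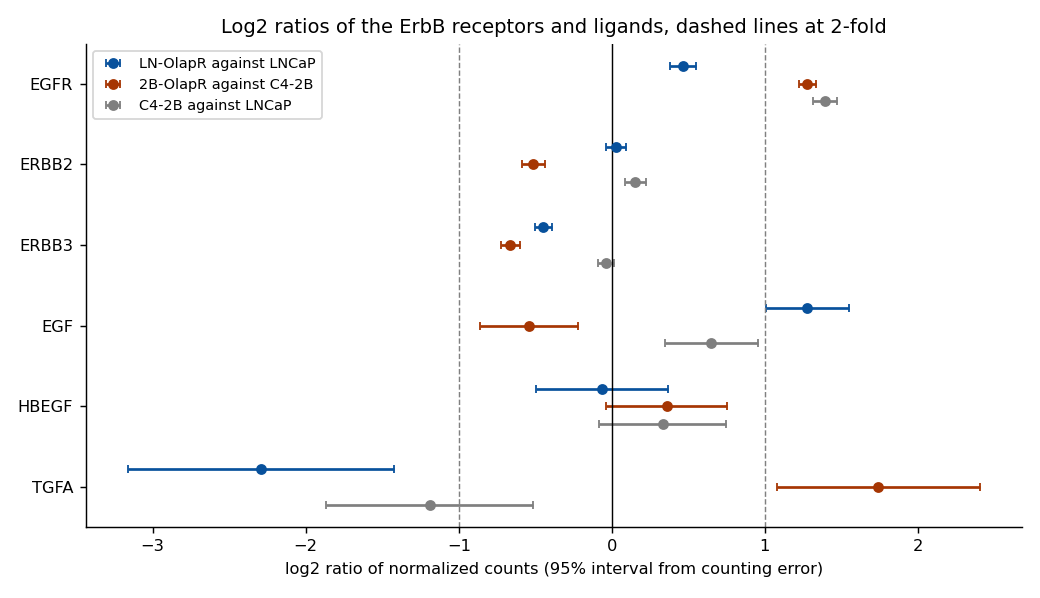
Log2 ratio of normalized counts (horizontal axis, 0 for no difference) of each measured member in the LN pair, the 2B pair and the parental comparison, with points for the ratio of single libraries, whiskers for the 95% interval from counting error and dashed lines at 2-fold. EGFR is above 0 in all 3 comparisons, ERBB2 in the LN pair sits at 0.03 and takes the opposite sign under scaling by total counts, and EGF and TGFA lie on opposite sides of 0 in the 2 pairs.

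Genes whose levels over the 4 lines ran most like those of a member were sought among 10136 genes averaging 10 normalized CPM or more. Likeness was the Euclidean distance between log2 levels centred over the 4 libraries. For EGFR the nearest was SHROOM3, an actin-binding protein that shapes epithelia, at a distance of 0.275. Its normalized CPM was 138.4 for LNCaP and 243.1 for LN-OlapR, with 372.4 for C4-2B and 935.2 for 2B-OlapR. The ERK phosphatase DUSP2 (0.403) and the cyclin CCND3 (0.462) came next, and 5 genes in all lay within 0.5. For EGF the nearest were MALT1 (0.120), EBPL (0.184) and TRPM4 (0.245), among 59 genes within 0.5. TGFA had no gene that close, the nearest being FADS2 (0.803), SORT1 (0.826) and DGLUCY (0.846). With 4 points from single libraries these distances describe the libraries only.

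IGFBP3 is a secreted binding protein for insulin-like growth factors. The study's background cites earlier work in which EGFR activation through IGFBP3 promoted olaparib resistance in LNCaP and C4-2B cells. Transcript counts do not measure that activation. IGFBP3 had 136, 308, 130 and 1912 estimated counts in LNCaP, LN-OlapR, C4-2B and 2B-OlapR. Its log2 ratio was 1.38 (1.09 to 1.67) in the LN pair and 3.86 (3.60 to 4.11) in the 2B pair, higher in each resistant line, as EGFR was. Between the parental lines it was 0.33 (-0.02 to 0.68).

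Among 5 further ErbB ligands, NRG3 and NRG4 had a row. NRG4, a neuregulin that binds ERBB4, had 53, 28, 16 and 12 estimated counts in LNCaP, LN-OlapR, C4-2B and 2B-OlapR, with a log2 ratio of -0.70 (-1.36 to -0.05) in the LN pair. NRG3 was seen at 3 counts in LNCaP and 7 in 2B-OlapR and at 0 in LN-OlapR and C4-2B, where a count of 0 allows up to 0.129 and 0.147 normalized CPM.

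Ligand release and trafficking genes stayed close to their parents on balance. Of 13 listed genes, 12 had a row, and the median log2 ratio was 0.14 over 9 genes in the LN pair and -0.07 over 11 in the 2B pair, beside -0.0040 and -0.00026 over all genes. ADAM17, the main protease that sheds TGF-alpha and HB-EGF, had 423, 324, 306 and 260 estimated counts, with log2 ratios of -0.18 (-0.39 to 0.03) and -0.25 (-0.49 to -0.01). At least 2-fold higher in each pair was ADAM12, a protease able to shed HB-EGF, at 19, 40, 7 and 37 counts and log2 ratios of 1.26 (0.48 to 2.04) and 2.30 (1.17 to 3.43). It entered each count through the resistant line alone, as its parents lay under 1 normalized CPM, at 0.707 in LNCaP and 0.342 in C4-2B. The mucin MUC1 was lower in the 2B pair, at 34 counts in 2B-OlapR against 70 in its parent (-1.05, -1.64 to -0.46), and was at 3 and 4 counts in the LN pair.

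Among 18 adaptors and proximal signalling genes, 17 were measured in the LN pair with 1 at least 2-fold higher and 1 lower. In the 2B pair 16 were measured, with 2 higher. These counts lie near the share of all genes, at 9.46% in the LN pair and 10.1% in the 2B pair. SHC3, an adaptor that links receptors to RAS, was higher in each resistant line, at 7, 56, 27 and 98 estimated counts in LNCaP, LN-OlapR, C4-2B and 2B-OlapR (log2 ratios 3.12, 2.02 to 4.22, and 1.82, 1.21 to 2.43). In the LN pair it entered the count through LN-OlapR alone, since LNCaP lay at 0.260 normalized CPM. EPS8, an EGFR substrate that acts on actin, took opposite directions in the pairs, at 351, 92, 122 and 259 counts (-1.72 and 1.06). The tyrosine kinase SRC was lower by less than 2-fold in each pair, at -0.30 and -0.84. The list medians were -0.11 and -0.15.

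Of 18 receptor inhibitors and ubiquitin ligases, 16 had a row, and the median was -0.06 in the LN pair and -0.44 in the 2B pair. RNF41, the ligase also called NRDP1 that targets ERBB3, had 4016, 2414, 2401 and 1294 estimated counts in LNCaP, LN-OlapR, C4-2B and 2B-OlapR. It was lower in each resistant line (log2 ratios -0.53, -0.60 to -0.46, and -0.91, -1.01 to -0.81), as was ERBB3. CBLC, a ligase of the CBL family that marks EGFR for degradation, had a log2 ratio of 1.06 (0.62 to 1.5) in the LN pair, which came to 0.98 under scaling by total counts, and -0.64 (-0.98 to -0.31) in the 2B pair. The ligase NEDD4 was at least 2-fold higher in the 2B pair, at 95 and 228 counts in C4-2B and 2B-OlapR (1.24, 0.90 to 1.59), and had a log2 ratio of 0.14 (-0.10 to 0.38) in the LN pair. SOCS5, which promotes EGFR degradation, had the lowest log2 ratio of the list in the LN pair, at -0.57 (-0.85 to -0.29).

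The cascades below the receptors were counted beside all genes, of which 9.46% passed 2-fold in the LN pair and 10.1% in the 2B pair. In the RAS-ERK cascade no gene of the 13 measured passed 2-fold in the LN pair. In the 2B pair 2 of 13 did, 1 higher and 1 lower. The medians were -0.09 in the LN pair and 0.06 in the 2B pair. KSR2, a scaffold of the cascade, had 298, 350, 25 and 91 estimated counts in LNCaP, LN-OlapR, C4-2B and 2B-OlapR. It was higher in each resistant line than in its parent, at log2 ratios of 0.44 (0.21 to 0.66) and 1.83 (1.19 to 2.46). In the PI3K-AKT cascade, 13 genes were measured in each pair, and INPP4B was the 1 gene past 2-fold, in the 2B pair. INPP4B, a lipid phosphatase that opposes PI3K signalling, had 314, 177, 272 and 58 estimated counts in LNCaP, LN-OlapR, C4-2B and 2B-OlapR (log2 ratios -0.62, -0.89 to -0.36, and -2.24, -2.65 to -1.83). PIK3R1, the regulatory subunit of PI3K, was lower in the LN pair (-0.63) and higher in the 2B pair (0.83), and the catalytic subunit PIK3CD was higher in each (0.88 and 0.28).

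ERK-induced and ERK feedback genes had the highest share past 2-fold of the signalling lists in the 2B pair. Of 14 measured there, 2 were at least 2-fold higher and 7 lower, against 4.42% and 5.65% of all genes, with a median of -0.78, while EGFR itself was higher. Of these 9, the genes FOS, SPRY4 and EGR1 (the last named after its values were seen) entered only through the line where each was high, the other line lying under 1 normalized CPM. In the LN pair 11 were measured, with 1 higher, 2 lower and a median of 0.41, against 4.64% of all genes higher and 4.83% lower. The ERK phosphatase DUSP4 had 1362, 849, 1156 and 171 estimated counts in LNCaP, LN-OlapR, C4-2B and 2B-OlapR, lower in each resistant line (-0.48, -0.60 to -0.35, and -2.77, -3.00 to -2.54). Its relative DUSP5 had 68, 28, 50 and 345 counts, lower in LN-OlapR (-1.06, -1.69 to -0.43) and higher in 2B-OlapR (2.76, 2.33 to 3.18). PHLDA1, an immediate early gene, was lower in each pair, at 1277, 202, 1457 and 319 counts (-2.45 and -2.21). SPRY4, a feedback inhibitor of receptor tyrosine kinase signalling, was at 27, 74, 55 and 13 counts, higher in LN-OlapR (1.64, 1.01 to 2.27) and lower in 2B-OlapR (-2.06, -2.92 to -1.20). The immediate early gene FOS rested on few reads, with 41 counts in C4-2B against 3 in 2B-OlapR (-3.59, -5.16 to -2.01), and 2 in each line of the LN pair. As counts of messenger RNA, these values do not measure the activity of ERK.

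**Figure D4:**
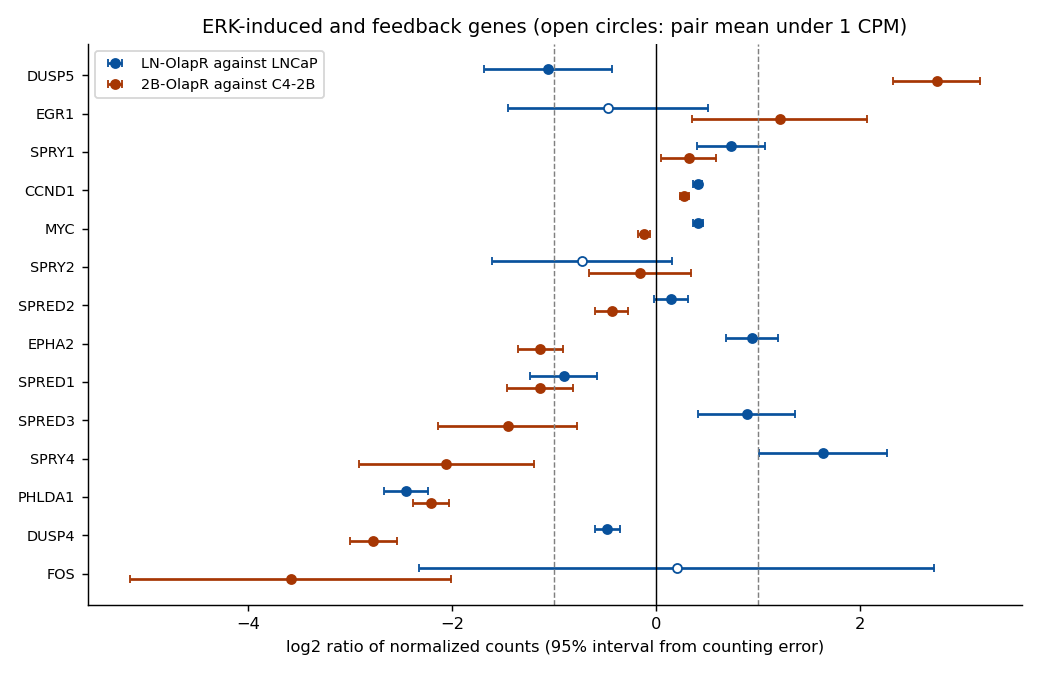
Log2 ratio of normalized counts (horizontal axis, 0 for no difference) of the ERK-induced and ERK feedback genes that averaged 1 normalized CPM or more in either pair, shown for the LN pair and the 2B pair, with points for the ratio of single libraries, whiskers for the 95% interval from counting error, dashed lines at 2-fold and open circles where the pair mean is under 1 normalized CPM. In the 2B pair 7 of the 14 genes plotted lie below -1, among them DUSP4 at -2.77, and DUSP5 lies at 2.76.

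EGFR was then placed among 54 other receptor tyrosine kinases, 38 of which had a row. In the LN pair 28 were measured, with 3 at least 2-fold higher, 6 lower and a median of 0.15, against 4.64% of all genes higher and 4.83% lower. Of these 9, the genes EPHB6, FGFR2 and PDGFRB had their lower line under 1 normalized CPM. In the 2B pair 31 were measured, with 4 higher, 7 lower and a median of -0.29, against 4.42% of all genes higher and 5.65% lower. EPHA2 (-1.13), 1 of the 7 lower, is also on the list of ERK-induced genes and was counted there too. Of the 28 measured in both pairs, 5 had a positive log2 ratio in both, as EGFR did. These were EPHA10 (0.91 and 1.5), EPHB6 (2.37 and 0.58), IGF1R (0.88 and 1.13), DDR1 (0.58 and 0.21) and INSR (0.33 and 0.49). EPHA10 and EPHB6 are ephrin receptors thought to lack kinase activity. The growth factor receptor IGF1R, DDR1 and INSR were picked out after their values were seen. The share of all genes with a positive log2 ratio in both pairs was not counted, so the 5 are not set against a background. IGF1R had 3238, 5159, 3548 and 7863 estimated counts in LNCaP, LN-OlapR, C4-2B and 2B-OlapR. Among the kinases lower in each resistant line were the ephrin receptor EPHA3, at 2751, 349, 1995 and 436 counts (-2.77 and -2.21), and the pseudokinase PTK7, at 1668, 873, 800 and 105 counts (-0.73 and -2.94). EPHA6 (-2.51) and FGFR2 (-2.10) were lower in the LN pair, with 2B log2 ratios of -0.22 (-0.50 to 0.05) and -0.70 (-1.48 to 0.08). LMTK3 had log2 ratios of 0.67 and -1.33.

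**Figure D5:**
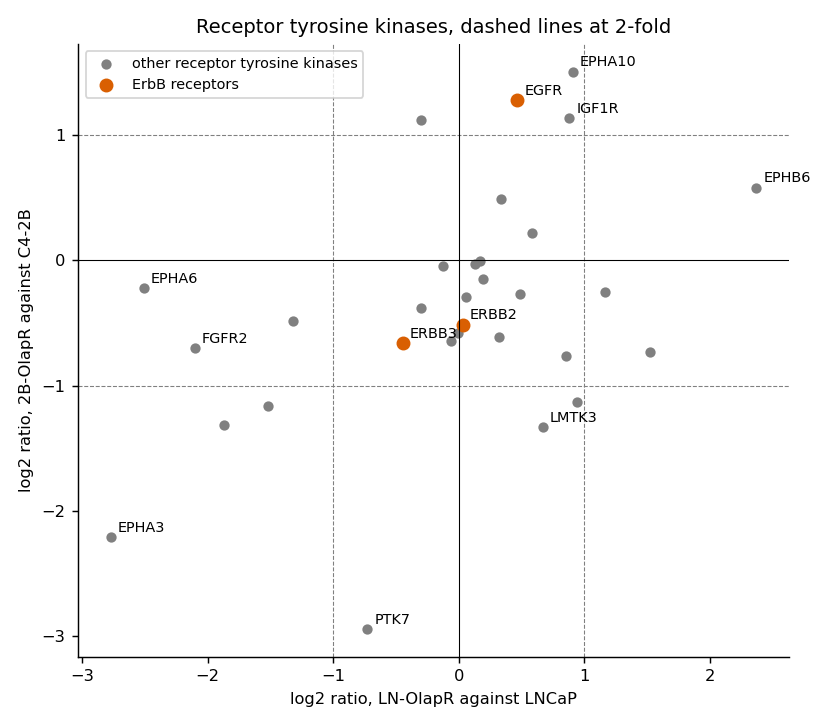
Log2 ratio of normalized counts in the LN pair (horizontal axis) and the 2B pair (vertical axis) for the 28 other receptor tyrosine kinases measured in both pairs (grey) and for EGFR, ERBB2 and ERBB3 (orange), each point from single libraries, with dashed lines at 2-fold. EGFR sits at 0.46 and 1.28 near IGF1R and EPHA10, and ERBB2, whose LN ratio of 0.03 takes the opposite sign under scaling by total counts, and ERBB3 sit below 0 in the 2B pair.

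The lower ERBB2 level in 2B-OlapR was set beside its neighbours on chromosome 17, of which 10 of 12 had a row. Over 9 measured genes the median log2 ratio in the 2B pair was 0.21, against -0.51 for ERBB2. Of the 9, 1 passed 2-fold, against 10.1% of all genes. This was GSDMB, a pore-forming gasdermin, at 119 and 60 estimated counts in C4-2B and 2B-OlapR (-1.0, -1.45 to -0.55). It sat at the 2-fold limit and no longer passed with DESeq2 size factors (-0.99), upper quartile scaling (-0.97) or a pseudocount of 2 (-0.98). PGAP3 and MIEN1, which overlap ERBB2 on the other strand, had more counts in 2B-OlapR than in its parent, at 466 against 337 and 2473 against 1622. In the LN pair the median over 8 neighbours was -0.26, and ORMDL3 had the lowest log2 ratio at -0.51 (-0.62 to -0.39).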

How the data were processed

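RNA-seq libraries of 4 prostate cancer cell lines, 1 per line, were made from 100 ng total RNA with a stranded mRNA kit. The authors deposited estimated counts per gene, not scaled between libraries, of which 46.0% of values are not whole. Submitters' processing notes name STAR, Partek and GRCh38 (hg38) with no role or version, and the counting tool, annotation and use of strand are not given in the sources used here. Estimated counts were rounded to whole numbers, and reads shared by near-identical genes may be split.

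TMM factors came from edgeR 4.0.16 in R 4.3.3, with tables and plots in Python 3.11.15, numpy 2.4.6, pandas 2.3.3 and matplotlib 3.10.9. A log2 ratio used counts plus 0.5, scaled by the TMM library size, with a 95% normal interval from the 2 counts. Ratios, their intervals and the 2-fold calls were tested on simulated counts that held counting error only. Levels carry Wilson intervals, which were not tested in this way. Genes needed a pair mean of 1 normalized CPM. The log2(count + 0.5) scale understates ratios of low genes. With 1 library per line, no p-value was computed. Lengths and positions come from GENCODE 29, matched by gene identifier without its version.

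Named were all members, list genes at least 2-fold apart in a pair (at most the 4 largest per pair), the highest and lowest of each list, the 3 genes nearest in pattern to a member spanning over 2-fold, and IGFBP3. Of these, those that bear on the family are given. A listed gene is not reported here. The members and lists were chosen with earlier results of these data known. Alternatives were scaling by total counts, DESeq2 1.42.0 size factors or upper quartile, a pseudocount of 2, a minimum mean of 0.1, of 10 or none, and, added after seeing the data, other transcript lengths. A count of 0 allows 3 counts.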

Additional observations from a re-analysis of the deposited data

Results flagged for a closer look

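Several genes had log2 ratios of opposite sign in the LN pair (LN-OlapR against LNCaP) and the 2B pair (2B-OlapR against C4-2B), with each interval from counting error on its own side of 0, and those given here are the members and the genes past 2-fold in both pairs. Each pair has 1 library per line, so the difference between pairs was not tested. The share of all genes with such opposite signs was not counted. The interval left out 0 for 63.0% of all genes in the LN pair and 62.3% in the 2B pair. Among the members these were EGF, at 1.28 in the LN pair and -0.54 in the 2B pair, and TGFA, at -2.29 and 1.74. Among the list genes named, those also at least 2-fold apart in both pairs were the ERK phosphatase DUSP5, at -1.06 and 2.76, the EGFR substrate EPS8, at -1.72 and 1.06, and the feedback inhibitor SPRY4, at 1.64 and -2.06. TGFA in LN-OlapR (0.514 normalized CPM) and SPRY4 in 2B-OlapR (0.627) lay under the minimum of 1. Each entered that pair through the parental line.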

How the results depend on the processing

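No paired analysis was possible because each cell line has 1 library. The member log2 ratios moved by more than their counting interval in 2 of 72 values under other scalings and pseudocounts, both in the LN pair under scaling by total counts, ERBB2 to -0.054 and ERBB3 to -0.53, where the median of all genes shifted by -0.084. The members at least 2-fold apart, 2 in each comparison, became 1 in the LN pair, 1 in the 2B pair and 1 between the parental lines with a minimum mean of 10, which removes members from the count. Of 141 pathway genes with a row, only those past the minimum mean could be called. Those at least 2-fold apart were 16 in the LN pair, 28 in the 2B pair and 29 between the parental lines. Of all genes past the same minimum, 9.46%, 10.1% and 15.2% were at least 2-fold apart. With a minimum mean of 10 the pathway counts were 6, 10 and 10, and in the LN pair 27 with a minimum mean of 0.1 and 30 with no minimum. EGFR had the largest receptor share in 2B-OlapR with the union of all exons as length (57.2%) and not with the median length of coding transcripts (43.1%). Single libraries leave variation between cultures unmeasured, and the ligands rest on 12 to 335 counts per library.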
